A study of Oryza sativa with 24 samples.

Results

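Aquaporins are channel proteins that let water, and in some forms other small uncharged molecules, cross membranes along a gradient. The plasma membrane intrinsic proteins (PIPs) lie in the plasma membrane and fall into a PIP1 and a PIP2 group, of which PIP2 proteins are the stronger water channels when expressed alone. The tonoplast intrinsic proteins (TIPs) lie in the vacuole membrane, the nodulin 26-like intrinsic proteins (NIPs) carry mainly small solutes such as metalloid acids, and the small basic intrinsic proteins (SIPs) are the least studied group. In plants these channels set how easily water moves through tissue, and their transcript levels and gating are known to respond to chilling.

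The genes described here are 3 rice aquaporins: OsPIP2;4 (PIP2-4 in the RefSeq gene table, LOC4343119), OsPIP2;5 (PIP2-5, LOC4343121) and NIP1-1 (OsNIP1;1 or rMIP1, LOC4328814). They were chosen by their fall in cold on these same arrays, so their changes with time are given as a description and carry no test. They are 3 of the 17905 genes that had a probe set annotated to a single gene. Each had 1 such probe set, which is the one read here. PIP2-5 also shared a further probe set with PIP2-1, and that one was not used. In the gene order of the RefSeq annotation (assembly ASM3414082v1), PIP2-4 and PIP2-5 are separated by a single pseudogene, and PIP2-1 is the next gene after PIP2-5. The letters of these genes and their promoters are not shown because no sequence was used here.

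The arrays were 24 Affymetrix rice arrays hybridised with total RNA from shoot and leaf tissue of seedlings with 4 leaves, grown in potting soil. There were 3 groups of 8 arrays: before cold, after 6 h and after 24 h in a chamber kept at 4 °C with a daily light and dark cycle. Each group held 1 array from each of 8 accessions, namely Geng87-304, Lixingeng, Muguanuo, Youmangzaogeng, 9311, IRAT109, MH63 and ZS97. The labels do not say whether an array came from 1 plant or a pool, nor whether plantings were separate, so the p-values below measure the spread between these samples, which may be technical. No array kept at growth temperature at 6 h or 24 h was analysed here, so cold, time of day and plant age cannot be told apart. The tissue was bulk, and fewer cells of a type cannot be told apart from less RNA per cell.

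Array medians lay between 41.8 and 46.7 intensity units. The cold-induced transcription factor genes DREB1A and DREB1B, which are known early markers of cold in rice, rose at 6 h by 4.13 and 4.52 on the log2 scale (limma adjusted p = 2.41e-05 and 1.18e-05), each higher in 8 of 8 accessions. At 24 h they were up by 3.62 and 4.43 (limma adjusted p = 1.09e-05 and 1.36e-06), each higher in 7 of 8 accessions. The labelled tissue was checked with marker lists. Of 22 leaf and shoot markers listed 9 were measured. These read above the fungal control probe sets on all 24 arrays, except CHLI, which did so on 22. The summed intensities of the 9 were 46870 to 54560 before cold, 51600 to 54100 at 6 h and 48030 to 53500 at 24 h. Of 14 root markers 6 were measured, and 3 of these (LSI2, IRT1 and YSL15) were above the controls on no array. LSI1 and TIP2-2 were above them on all 24 arrays, and NRT2.3 was on 9. The summed intensity of the 6 ran from 2821 to 4831 before cold, from 1827 to 4017 at 6 h and from 3665 to 5649 at 24 h, most of it from TIP2-2. TIP2-2 and LSI1 (NIP2-1) are themselves aquaporins and appear again below. At 24 h 2 of the 6 root markers passed in limma as lower (adjusted p under 0.05) and 1 as higher. Of the 9 leaf markers 2 passed as lower. Over all probe sets 19.8% passed as lower and 13.3% as higher at 24 h, so nothing is read from these few markers. None of these markers was at 0 on any array. The part of tissue make-up in the results below was not tested.

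A pair of arrays that the labels give as different accessions and times was nearly alike. The array labelled Lixingeng before cold and the array labelled MH63 at 24 h had a Spearman correlation of 0.992 over all probe sets, the highest of the 276 pairs of arrays, of which the next reached 0.981. The array labelled MH63 at 24 h correlated at 0.956 and 0.962 with the other MH63 arrays and at 0.977 with the Lixingeng array at 6 h. The 3 aquaporins also read alike on this pair: PIP2-4 had intensities of 508 and 506, PIP2-5 of 318 and 321, and NIP1-1 of 768 and 894. They are called the look-alike arrays below. Results for PIP2-4, PIP2-5 and NIP1-1 and the counts over the family are given with them and without them, and the changes of single other aquaporins with all arrays. Without them, change was measured in 7 accessions at 6 h, in 6 at 24 h, and in 7 from 6 h to 24 h.

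Before cold, PIP2-4, a water channel of the plasma membrane, had a lowest intensity of 263 in 9311, a median of 454 and a highest of 642 in Geng87-304. At 6 h its lowest, median and highest intensities were 142, 283 and 650. At 24 h they were 91.6, 123 and 506, and without the look-alike array the highest was 232, in Lixingeng. Every 24 h array other than that one therefore lay below every array before cold, and the 6 h arrays overlapped both groups. The lowest arrays at 24 h were those of Muguanuo, 9311 (103) and Youmangzaogeng (109), and the highest of the remaining arrays, below Lixingeng, was that of IRAT109 (187).

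The mean log2 change of PIP2-4 was -0.45 ± 0.49 at 6 h (SD, n = 8 accessions), or 1.36-fold lower on the scale of log2(intensity + 32), and it was lower in 7 of 8. The exception was Lixingeng, whose array before cold is a look-alike array (+0.34). Without the look-alike arrays the 6 h change was -0.56 ± 0.41 and lower in 7 of 7 accessions, from -0.02 in Muguanuo to -1.19 in MH63. At 24 h it was -1.27 ± 0.66, or 2.42-fold lower, in 7 of 8 accessions. Leaving out both look-alike arrays gave -1.55 ± 0.32, or 2.93-fold lower, in 6 of 6, from -1.13 in 9311 to -2.05 in Geng87-304. The exception among the 8 was MH63 (+0.16), whose 24 h array is the other look-alike array.

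PIP2-5, a PIP2 water channel best known from rice roots, spread more widely between accessions. Before cold its lowest intensity was 121 in Muguanuo, its median 487 and its highest 1064 in ZS97. At 6 h these were 118 in Muguanuo, 225, and 657 in ZS97. At 24 h they were 50.4 in Muguanuo, 97.7 and 321, with 163 in ZS97 as the highest without the look-alike array. The groups overlapped at each time, because Muguanuo before cold read lower than ZS97 at 24 h, although each accession was lower at 24 h than before cold.

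The mean log2 change of PIP2-5 was -0.82 ± 0.59 at 6 h (SD, n = 8), or 1.77-fold lower, and it was lower in 8 of 8 accessions. Its largest 6 h drops were in 9311 (-1.94) and MH63 (-1.42), and the smallest was in Muguanuo (-0.03). At 24 h the change was -1.79 ± 0.56, or 3.46-fold lower, in 8 of 8. Leaving them out gave -0.84 ± 0.63 at 6 h in 7 of 7 and -1.94 ± 0.57 at 24 h in 6 of 6. PIP2-5 was not above the highest fungal control probe set of the same array on 4 of the 24 arrays, namely 9311 at 6 h and at 24 h, Geng87-304 at 24 h and Muguanuo at 24 h. There the array gives little more than an upper limit, and the size of the drop is a lower estimate.

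NIP1-1, a nodulin 26-like channel, had before cold a lowest intensity of 442 in IRAT109, a median of 744 and a highest of 1822 in Muguanuo. At 6 h its lowest, median and highest were 128 in 9311, 619, and 1023 in Muguanuo. At 24 h they were 68.1 in ZS97, 197 and 894, and the highest without the look-alike array was 237 in Muguanuo. Every 24 h array other than the look-alike one lay below every array before cold. Geng87-304 went from 1622 before cold through 936 to 184, and Muguanuo from 1822 through 1023 to 237.

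The mean log2 change of NIP1-1 was -0.73 ± 0.49 at 6 h (SD, n = 8), or 1.66-fold lower, in 8 of 8 accessions. In Lixingeng, whose array before cold is a look-alike array, it was -0.04. At 24 h the change was -2.02 ± 1.02, or 4.04-fold lower, in 7 of 8 accessions, with MH63 at +0.30. With both look-alike arrays left out it was -0.83 ± 0.44 at 6 h in 7 of 7 and -2.45 ± 0.35 at 24 h in 6 of 6, the latter 5.47-fold lower. NIP1-1 was not above the highest fungal control on 3 arrays (9311 at 6 h and 24 h, and ZS97 at 24 h), while PIP2-4 was above it on all 24.

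**Figure D1:**
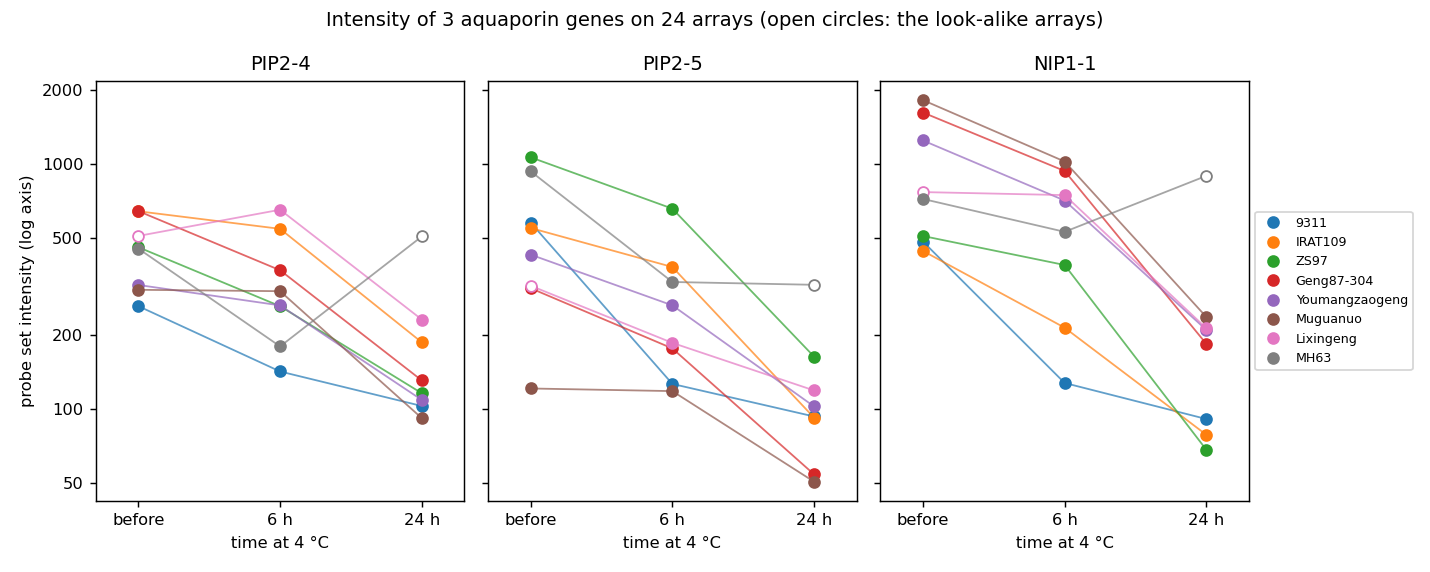
Probe set intensity (log axis) of PIP2-4, PIP2-5 and NIP1-1 before cold and after 6 h and 24 h at 4 °C, 1 line per accession and 1 point per array. Open circles are the look-alike arrays, Lixingeng before cold and MH63 at 24 h. Without them the 24 h arrays of PIP2-4 read 91.6 to 232 and those of NIP1-1 68.1 to 237, below every array before cold.

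For scale, the median change over all 57258 probe sets was -0.01 at 6 h and at 24 h. At 6 h 6.96% of all probe sets passed as lower (limma, adjusted p under 0.05) and 2.79% as higher. At 24 h 19.8% passed as lower and 13.3% as higher. From 6 h to 24 h 10.1% passed as lower and 7.94% as higher. With both look-alike arrays left out the shares were 9.91% lower and 4.5% higher at 6 h, 20.9% and 15.9% at 24 h, and 14.2% and 12.0% from 6 h to 24 h. Few probe sets had a larger mean drop at 24 h than these genes: 0.653% for PIP2-4, 0.134% for PIP2-5 (77 probe sets) and 0.0699% for NIP1-1 (40 probe sets). Without the look-alike arrays this share was 0.524% for PIP2-4, 0.206% for PIP2-5 (118 probe sets) and 0.0454% for NIP1-1 (26 probe sets), so it went up for PIP2-5 and down for the other two. Each of the 3 was lower in every accession with no look-alike array at 6 h, at 24 h and from 6 h to 24 h. Of all probe sets 9.83%, 17.7% and 11.4% were. Of all probe sets 5.46% had every 24 h array below every array before cold without the look-alike arrays, as PIP2-4 and NIP1-1 did. Since the genes were chosen by this fall, nothing is read from these shares.

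The larger step came after 6 h in most accessions. The interval from 6 h to 24 h is also the longer one, so the sizes of the steps are not rates. From 6 h to 24 h the log2 change was -1.13 ± 0.38 for PIP2-4, -1.10 ± 0.56 for PIP2-5 and -1.57 ± 0.63 for NIP1-1 (SD, n = 7, without the look-alike arrays). With all 8 accessions it was -0.82 ± 0.94, -0.97 ± 0.64 and -1.286 ± 0.999. In the 6 accessions with no look-alike array, the median share of the 24 h change reached by 6 h was 27.8% for PIP2-4, 31.2% for PIP2-5 and 31.0% for NIP1-1. The step after 6 h was the larger one in 5 of these 6 accessions for each gene.

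The accession that ran the other way was 9311, in which 67.2% of the PIP2-4 change, 85.1% of the PIP2-5 change and 81.8% of the NIP1-1 change was in place by 6 h. In the other 5 accessions the shares were 1.17% to 42.4%, 3.16% to 36.0% and 15.1% to 44.8%. By 6 h PIP2-5 and NIP1-1 were at the level of the fungal controls in 9311. Their intensities were 126 and 128 against a highest control of 137, the mark of background used here. Both read lower again at 24 h (93.1 and 90.9), against a highest control of 96.6. PIP2-4 was above the control in 9311 at 6 h (142). The 9311 array at 6 h had the highest fungal control of the 24. On the 6 h arrays of the other 5 accessions this control was 66.7 to 91.2. A related measure was taken over the 21075 probe sets that passed at 24 h without the look-alike arrays, and so were selected by their 24 h change. It was the slope of their 6 h changes on their 24 h changes with no intercept, to which large changes contribute most. The gene shares above are single ratios, so the measures are not alike. As a percentage the slope was 54.2% in 9311 and 43.5% to 51.1% in the other 5. The part of this array-wide difference in the early drop was not tested.

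At the other end was Muguanuo. PIP2-4 read 306 before cold and 302 at 6 h there, and 91.6 at 24 h. PIP2-5 read 121, 118 and 50.4. Neither PIP2 gene was lower by more than 0.03 on the log2 scale at 6 h, yet NIP1-1 in the same RNA was lower by 29.2% of its 24 h change (-0.81). MH63 showed a different split on its arrays before cold and at 6 h, with -1.19 for PIP2-4 and -1.42 for PIP2-5 but -0.42 for NIP1-1. With 1 array per accession and time these differences between accessions have no replicate check.

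**Figure D2:**
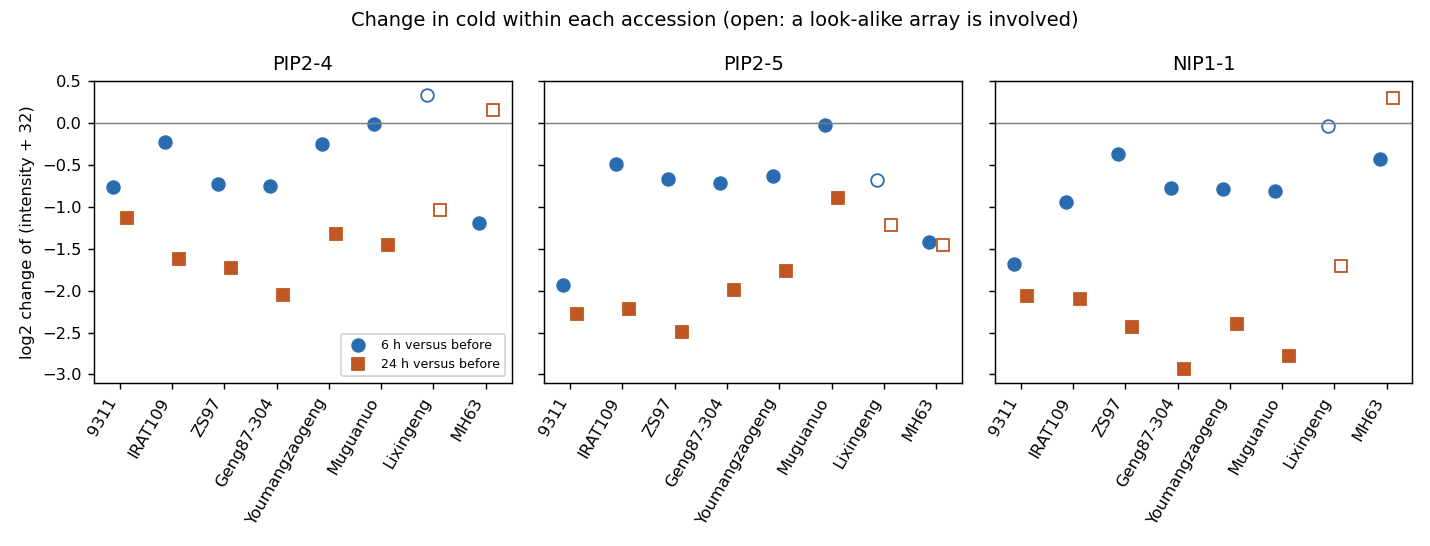
Log2 change of (intensity + 32) within each accession for PIP2-4, PIP2-5 and NIP1-1, at 6 h (circles) and at 24 h (squares) against before cold. Open symbols involve a look-alike array. In 9311 the 6 h and 24 h values of PIP2-5 (-1.94 and -2.28) lie close together, and in Muguanuo the 6 h values of both PIP2 genes lie at 0.

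The level averaged over the 3 times was not used to choose these genes, so differences between accessions were tested with limma's moderated F test, adjusted over all 57258 probe sets. Such a difference was common, passing for 54.3% of all probe sets and for 60.9% without the look-alike arrays. It also passed for 20 of the 22 other aquaporins measured. No accession had replicate arrays at any time, so the 3 times stood in as its replicates. The F test, and the standard errors given below, rest on the spread left after the time and accession means. A difference between accessions therefore cannot be told apart from a difference between plants, plantings or RNA samples. A probe set reads lower where an accession's sequence differs from the probes, and the part of this in the differences was not tested.

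For NIP1-1 the mean level was highest in Muguanuo (776) and lowest in 9311 (184), a 3.74-fold range (adjusted p = 0.00255, and 4.31e-06 without the look-alike arrays). The order from the highest down was Muguanuo, MH63 (699), Geng87-304 (670), Youmangzaogeng (580), Lixingeng (502), ZS97 (251), IRAT109 (202) and 9311. Of the 7 steps between neighbours in this order, the 1 between Lixingeng and ZS97 (0.92 on the log2 scale) was over 2 standard errors, and the other 6 were not. Without Lixingeng and MH63 the step lay between Youmangzaogeng and ZS97 (1.11). With all arrays 5 accessions thus had higher NIP1-1 levels and 3 had lower ones. The place of MH63 rests in part on its look-alike array at 24 h (894), against 720 before cold and 528 at 6 h. The level of Lixingeng also includes its look-alike array before cold. Without Lixingeng and MH63, Muguanuo, Geng87-304 and Youmangzaogeng lay above the step and ZS97, IRAT109 and 9311 below it.

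PIP2-5 ran in another order, highest in ZS97 (496) and MH63 (466), followed by IRAT109 (277), Youmangzaogeng (231), 9311 (197), Lixingeng (194) and Geng87-304 (151), and lowest in Muguanuo (91.8). The range was 4.27-fold (adjusted p = 0.000183, and 0.00025 without the look-alike arrays). Among neighbours, only the step from MH63 to IRAT109 (0.69) was over 2 standard errors, and without Lixingeng and MH63 only that from ZS97 to IRAT109 (0.77). Muguanuo, the accession with the highest NIP1-1 level, thus had the lowest PIP2-5 level.

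PIP2-4 differed least between accessions, by 2.41-fold from Lixingeng (428) down to 9311 (158), with an adjusted p of 0.0475 that lies close to the threshold. The call was lost with equal medians (0.0635), with quantile normalization (0.0583) and on leaving out any one of 9311, IRAT109, ZS97, Youmangzaogeng, Muguanuo or Lixingeng (0.0545 to 0.187). Without the look-alike arrays the adjusted p was 0.000101 and the range 2.86-fold. Between the ends came IRAT109 (407), MH63 (348), Geng87-304 (321), ZS97 (245), Youmangzaogeng (213) and Muguanuo (209), and none of the 7 steps was over 2 standard errors, nor any of the 5 without Lixingeng and MH63.

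**Figure D3:**
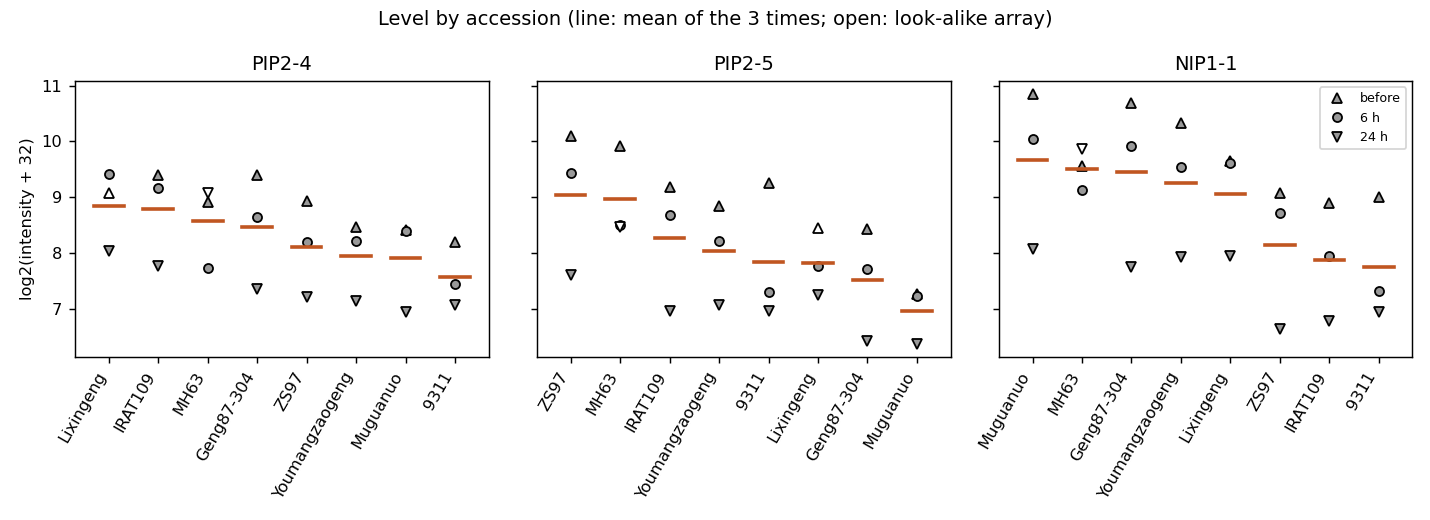
Level of PIP2-4, PIP2-5 and NIP1-1 by accession as log2(intensity + 32), ordered within each panel from the highest to the lowest mean over the 3 times (line). Triangles pointing up are before cold, circles 6 h and triangles pointing down 24 h, and open symbols are the look-alike arrays. Muguanuo is last for PIP2-5 and the first for NIP1-1.

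Across the 24 arrays the levels of PIP2-4 and PIP2-5 had a Pearson correlation of 0.642, those of PIP2-4 and NIP1-1 of 0.676 and those of PIP2-5 and NIP1-1 of 0.403. Over the 18 arrays of the 6 other accessions these were 0.711, 0.656 and 0.359. With the means of time and accession removed they were 0.556, 0.82 and 0.439 over the 24 arrays and 0.483, 0.524 and 0.337 over the 18. The arrays share accession and time, and the drop by which the genes were chosen is part of the values with no means removed. The means of the 8 accessions had lower correlations, of 0.24 for the PIP2 pair, 0.155 for PIP2-4 and NIP1-1, and -0.35 for PIP2-5 and NIP1-1.

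Among 2416 genes with a name, those whose level over the 24 arrays was most like that of NIP1-1 were PDIL5-4, a protein disulfide isomerase-like gene (r = 0.932), OsGT47D, a glycosyltransferase gene (0.928), and SAP4, a stress-associated protein gene (0.926). For PIP2-4 they were IMP (0.891), ILL5, an IAA-amino acid hydrolase-like gene (0.889), and AGPR (0.887). For PIP2-5 they were HAK9, a potassium transporter gene (0.885), the general transcription factor gene TFIIB (0.868) and another aquaporin, TIP3-2 (0.859). TIP3-2 was dim, at 46.4 to 95.6, and was above the fungal controls on 1 array. Over the 22 arrays other than the look-alike pair these 9 correlations were 0.868 to 0.942. The points share accession, time and array.

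The rest of the family gives the frame for these values. The tables named 29 aquaporin genes, of which 25 had a probe set of their own, so 22 others were measured. At 6 h 5 of the 22 passed in limma as lower (22.7%) and none as higher, with a median log2 change of -0.12. At an unadjusted p under 0.05 these counts were 11 and 0. No share of all probe sets was taken at that cutoff, so such counts, here and below, have no background to compare with. At 24 h 14 passed as lower (63.6%) and 2 as higher (9.09%), with a median of -0.31. From 6 h to 24 h 12 fell and 2 rose, with a median of -0.17. The background shares at an adjusted p under 0.05 were 6.96%, 19.8% and 10.1% lower and 2.79%, 13.3% and 7.94% higher, as given above. They take in dim probe sets. With a filter that kept the probe sets above the median level, 3844, 9432 and 5738 passed as lower, against 3983, 11323 and 5802. The share lower was thus larger among brighter probe sets. Without the look-alike arrays 8 fell and 1 rose at 6 h, 15 fell and 2 rose at 24 h (among them all 16 that passed with every array), and 13 fell and 2 rose from 6 h to 24 h. Of the 22, 5 read above the fungal controls on no array (NIP4-1, NIP3-1, TIP2-1, TIP3-1 and PIP2-8).

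Of the 5 other PIP2 genes 3 passed as lower at 24 h. PIP2-2, a water channel, had median intensities of 4875 before cold, 3904 at 6 h and 2475 at 24 h. It fell at 24 h by 0.95 ± 0.32 on the log2 scale (SD, n = 8; limma adjusted p = 1.13e-07), in 8 of 8 accessions. At 6 h its change was -0.28 (limma adjusted p = 0.0435), and this call did not hold with equal medians (0.0856) or without any one of 9311, IRAT109, ZS97, Geng87-304 or Muguanuo (0.0661 to 0.135). Its probe set is of a kind that can be shared between related transcripts, and a further, dimmer probe set of PIP2-2 fell at 24 h by 0.28 (limma adjusted p = 0.00151). The course of the dimmer one differed. It was at -0.275 by 6 h (limma adjusted p = 0.00694) and at -0.007 from 6 h to 24 h (limma adjusted p = 0.963). In that later step the probe set read here fell by 0.675 (limma adjusted p = 3.11e-05).

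PIP2-1, the neighbour of PIP2-5, fell at 24 h by 0.86 ± 0.39 (limma adjusted p = 1.47e-06), and its median intensity went from 4742 before cold to 2443. At 6 h it did not pass (-0.23, limma adjusted p = 0.164) except without the look-alike arrays (-0.27, limma adjusted p = 0.0446) or with array weights (limma adjusted p = 0.0487). Of its further probe sets, a bright one did not pass at 6 h either (-0.20, limma adjusted p = 0.0997), and a dim one fell by 0.63 (limma adjusted p = 0.00781). The PIP2-1 probe set read here, like those of NIP2-2 and TIP2-2 below, is also of a kind that can read other transcripts. Its medians (4742, 3768 and 2443) were close to those of PIP2-2 at each time. Whether the probe sets of PIP2-1 and PIP2-2 read some of the same RNA was not tested. PIP2-6 fell at 24 h by 0.48 ± 0.35 (limma adjusted p = 0.00966), a call lost without accession as a block (0.277). PIP2-7 was at +0.14 ± 0.20 at 24 h (adjusted p = 0.11). The PIP2 group was therefore not uniform. PIP2-8 had a 6 h change of +0.07, which passed only without the look-alike arrays (limma adjusted p = 0.0315), at 29.3 to 40.1 intensity units before cold and at 6 h.

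All 3 PIP1 genes were lower at 24 h. PIP1 proteins are weaker water channels alone and reach the plasma membrane together with PIP2 proteins. PIP1-3 fell by 0.59 ± 0.37 (limma adjusted p = 0.000209), in 7 of 8 accessions. This call was lost without accession as a block (limma adjusted p = 0.0781). PIP1-1 fell by 0.47 ± 0.16 and PIP1-2 by 0.32 ± 0.07 (limma adjusted p = 7.2e-07 and 1.51e-06). At 6 h PIP1-2 passed (-0.15, limma adjusted p = 0.0143), a call lost with equal medians (0.0571) or without 9311 (0.0522).

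The vacuolar TIPs went both ways, with 3 lower and 2 higher of 8 at 24 h. TIP1-1 fell by 0.74 ± 0.20 (limma adjusted p = 3.76e-08), its median intensity going from 6915 before cold through 5656 to 4086, and it had already fallen by 0.26 at 6 h (limma adjusted p = 0.0047). TIP1-2 fell at 24 h by 0.57 ± 0.27 (limma adjusted p = 1.08e-05). TIP4-1 rose at 24 h by 0.38 ± 0.28 in 8 of 8 accessions (limma adjusted p = 0.00174), with medians of 2166 before cold, 2183 at 6 h and 2862 at 24 h. A dim probe set of TIP4-1 was at +0.10 (limma adjusted p = 0.143). TIP2-2 rose by 0.40 ± 0.38 in 6 of 8 accessions (limma adjusted p = 0.015), a call lost without Geng87-304 (0.0564) or Youmangzaogeng (0.0574). Without accession as a block neither rise passed (limma adjusted p = 0.18 for TIP4-1 and 0.102 for TIP2-2). From 6 h to 24 h TIP2-2 rose by 0.70 (limma adjusted p = 0.000573).

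Among the other 4 NIPs, NIP2-2 (Lsi6) and NIP2-1 (Lsi1), both silicon channels in rice, fell at 24 h by 0.81 ± 0.32 and 0.76 ± 0.28 (limma adjusted p = 2.59e-06 and 7.18e-07). NIP2-2 had median intensities of 3401 before cold and 1844 at 24 h. NIP3-1 also passed at 24 h (-0.19, limma adjusted p = 0.0493) but was dim throughout, and the call was lost in 9 of 15 alternatives. At 6 h none of the 4 passed in limma, with a median change of -0.18, although 2 were lower at an unadjusted p under 0.05 and 2 passed without the look-alike arrays. SIP1-1 and SIP2-1 fell both at 6 h and at 24 h. SIP1-1 fell by 0.49 at 6 h and by 0.995 ± 0.42 at 24 h (limma adjusted p = 0.00727 and 1.25e-06), and SIP2-1 by 0.11 and 0.28 (limma adjusted p = 0.0281 and 1.71e-06). SIP2-1 was above the fungal controls on 3 arrays, and its 6 h call was lost in 8 of 16 alternatives. Its 24 h call was lost without accession as a block (limma adjusted p = 0.0639).

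**Figure D4:**
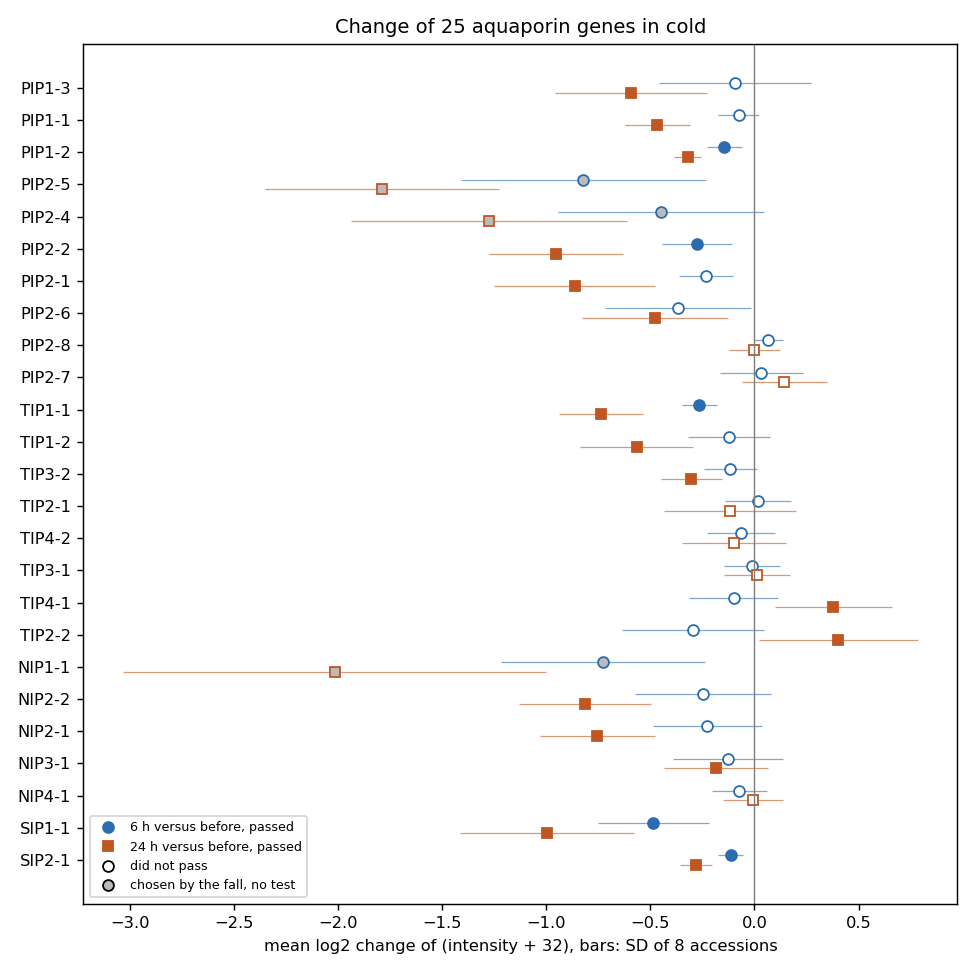
Mean log2 change of (intensity + 32) of 25 aquaporin genes at 6 h (circles) and 24 h (squares) against before cold, by subfamily, with bars for the SD of 8 accessions. Filled symbols passed limma's adjusted test, white ones did not, and grey ones are PIP2-4, PIP2-5 and NIP1-1, which were chosen by the fall. TIP4-1 (0.38) and TIP2-2 (0.40) are the 2 that rose at 24 h.

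Set beside these, the mean 24 h changes of PIP2-5 (-1.79) and NIP1-1 (-2.02) and that of PIP2-4 (-1.27) were larger than that of SIP1-1, which at -0.995 had the largest drop of the 22 others. That order is part of the choice of the genes and is a description. Measures of the arrays also moved with time. In 8 of 8 accessions the upper quartile of the intensities was lower in cold, with a mean difference of -5.59 ± 2.36 units at 6 h and -8.50 ± 3.19 units at 24 h (SD, n = 8). The actin controls read RNA quality as the 3′ signal over the 5′ signal, and on the log2 scale this was 4.06 ± 0.38 for the arrays before cold, 4.03 ± 0.40 for those at 6 h and 3.63 ± 0.51 for those at 24 h. Within accessions it was lower at 24 h in 8 of 8, with a mean difference from before cold of -0.43 ± 0.31. The part of these measures in the changes was not tested.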

How the data were processed

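The deposited table held a linear intensity for each probe set and array, per the file headers and the values. How the authors summarised and scaled it is not given in the sources used here, and the small number of arrays limits the precision. Of 57381 probe sets 123 controls were left out. Values were taken as log2(intensity + 32), so folds of dim genes are understated. The platform annotation gave 22436 of the 57258 tested probe sets 1 gene, 95 several and 34727 none, and all 22436 were found in the RefSeq gene table. A gene was read from its single-gene probe set of highest mean. A linear model with time and accession was fitted over all probe sets with limma 3.58.1 in R 4.3.3 (moderated tests with Benjamini-Hochberg adjustment, passing under 0.05). Tables and plots used Python 3.11.15. The highest of 10 probe sets for the fungus Magnaporthe served as the background of an array.

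Accession served as the replicate block, since by the labels each accession has arrays at all 3 times. Deviations from the time means correlated at 0.248 to 0.886 between arrays of the same accession (24 pairs, median 0.788). Over the 20 of these pairs with no look-alike array the range was 0.652 to 0.886. The 252 pairs of different accessions had correlations of -0.578 to 0.512 (median -0.129), so the ranges over all pairs overlapped. The members and gene lists were chosen with earlier results of these data known. The text names the 3 members, in each aquaporin subfamily up to 4 genes with the largest 24 h change among those that passed and up to 2 of the highest level, every aquaporin that rose, DREB1A and DREB1B, and the 3 named genes most alike to each member. PIP2-7 stands there for its level. Gene names follow the hyphenated synonyms of the RefSeq table. The model was tested on simulated data. Alternatives were offsets of 16 and 64, a filter on dim probe sets, equal medians, quantile normalization, array weights, no block, and leaving out each accession or the look-alike arrays.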

Additional observations from a re-analysis of the deposited data

Results flagged for a closer look

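In 18 groups of 8 values (the levels of the 3 genes at each time and their changes within accessions), 4 had a value far from the others by Dixon's criterion, which marks about 1 in 20 groups by chance. All 4 came from the look-alike array labelled MH63 at 24 h. NIP1-1 had a log2 level of 9.86 on it, and the change of NIP1-1 in MH63 at 24 h against before cold was 0.301. The change of PIP2-4 in MH63 was 0.155 at 24 h against before cold and 1.34 at 24 h against 6 h.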

How the results depend on the processing

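No change that passed turned its direction, and PIP2-4, PIP2-5 and NIP1-1 stayed lower in each comparison under every alternative run. In the fit without the look-alike arrays the 24 h change went from -1.27 to -1.63 for PIP2-4 and from -2.015 to -2.425 for NIP1-1, by more than the SD between the accessions with no such array (0.324 and 0.352). Without the replicate block, which leaves out the pairing by accession, 1530 probe sets passed at 6 h (5582 with it), 9985 at 24 h (18914) and 3252 from 6 h to 24 h (10350). The other aquaporins that passed were then 0, 10 (all lower) and 5, against 5, 16 (14 lower, 2 higher) and 14, with 4 of 22 at 6 h under an unadjusted p of 0.05 in limma. With array weights 8854 and 16000 probe sets passed at 6 h and from 6 h to 24 h. At 6 h 3 other aquaporins passed with equal medians, 9 without the look-alike arrays and 2 to 5 on leaving out 1 accession, fewest without 9311. With quantile normalization the 6 h calls were 2941 lower and 2490 higher, against 3983 and 1599. The 24 h calls were then 9554 lower and 9397 higher, against 11323 and 7591. The excess of lower calls over all probe sets thus depended on the scaling at both times. The adjusted p of PIP2-4 between accessions was 0.0635 with equal medians, 0.0583 with quantile normalization and 0.000197 to 0.187 on leaving out 1 accession. The causes of these shifts were not tested, except that leaving out an accession leaves fewer arrays. Of the results for other single aquaporins 982 kept their call, 45 lost it and 14 gained it. Signal over background limits PIP2-5 and NIP1-1 on 4 and 3 arrays.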
